A study of Mus musculus with 6 samples.

Results

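The genes of the cytosolic ribosomal proteins were followed in haematopoietic stem cells (HSCs) of mouse bone marrow. Members were the protein-coding genes of the count table whose names start with Rpl or Rps and a digit, together with Rplp0, Rplp1, Rplp2 and Rpsa. Names of the S6 kinases, names marked as pseudogenes and the paralogs whose names end in l or l1 were left out. This gave 79 of the 18368 genes in the table: 46 of the large subunit, 32 of the small subunit, and Rps19bp1, which encodes a protein that binds Rps19 and is no ribosomal protein, so it belongs to neither subunit below. Rps27rt, counted in the small subunit, is a near-copy of Rps27. Fau and Gnb2l1 (also called Rack1) encode ribosomal proteins too but fall outside the name rule.

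RNA came from about 2000 sorted HSCs of adult mice per library, 3 libraries of genotype Ramp1+/+ (wild type) and 3 labelled Ramp1 Mut, with the genotype written Ramp-/- (mutant). Ramp1 encodes the accessory subunit of the receptor for the neuropeptide CGRP, and the series title concerns pain-sensing nerves and the mobilization of HSCs. The labels do not give the strain, the exons that the allele removes, or whether the libraries stem from different animals; p-values then measure only how these libraries spread, which may be technical.

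A ribosome has a large and a small subunit, each built of ribosomal RNA and many proteins that are present in a single copy or nearly so. The small subunit reads the mRNA codons and the large subunit joins the amino acids and passes the growing chain through its exit tunnel. The mRNAs of ribosomal proteins typically begin with a cytosine and a stretch of pyrimidines, the terminal oligopyrimidine motif, through which mTOR and the RNA-binding protein Larp1 control their translation. HSCs make protein more slowly than their progeny, and loss of 1 copy of several of these genes causes Diamond-Blackfan anaemia, a failure of red cell production. Ribosomal protein genes have also left many processed copies in the mouse genome, some nearly identical in sequence to the coding mRNA.

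The libraries held 22796771 to 26734561 counted reads. Ramp1 had 91.4, 88.3 and 91.0 FPKM (reads per kilobase of gene length, scaled to the counted reads of the library) in wild-type libraries, against 3.53, 2.65 and 1.35 in mutant libraries, a log2 fold change of -5.17 (SE 0.31; edgeR adjusted p = 0.00146). All 12 HSC markers examined were above 0 in every library, with summed levels of 1450 to 1707 FPKM in wild type and 1448 to 1820 in mutant. The 12 neutrophil markers summed to 35.3 to 822 FPKM in wild type and 182 to 1140 in mutant, 11 of them with the higher mean in mutant and Cebpe, Elane, Ly6g and Retnlg at 0 in at least 1 library. The summed levels of the other marker lists (erythroid, B cell, T and NK cell, macrophage and monocyte) also overlapped between the groups, and the part of such cells in the results below was not tested. Wild-type replicate 1 and mutant replicate 1 carried 6527 and 6137 reads of Y-linked genes and the other libraries at most 2. Each of the groups thus held 1 library with Y-linked reads.

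The sequence near the start of these genes is shown first because the pyrimidine motif is the best known feature they share. RefSeq promoters (GRCm38.p6) were found by symbol for 59 of the 79 members, with 69 annotated starts. Each line below runs from 30 bases before the start through the first 15 transcribed bases, and capitals mark the longest run of C or T that touches the 20 bases on either side of the start.
Rpl35, chr2:39005117-39005161, minus strand: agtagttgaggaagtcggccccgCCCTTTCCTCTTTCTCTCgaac
Rpl38, chr11:114668550-114668594, plus strand: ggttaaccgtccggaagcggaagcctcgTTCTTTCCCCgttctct
Rps27, chr3:90213634-90213678, minus strand: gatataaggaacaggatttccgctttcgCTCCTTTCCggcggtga
Rps6, chr4:86857353-86857397, minus strand: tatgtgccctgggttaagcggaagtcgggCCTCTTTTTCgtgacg
Rpl41, chr10:128549154-128549198, minus strand: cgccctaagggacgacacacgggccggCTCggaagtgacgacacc
Rps2, chr17:24720033-24720077, plus strand: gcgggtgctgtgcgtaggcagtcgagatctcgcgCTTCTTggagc
Rpl35, Rpl38, Rps27 and Rps6 have a long run across the annotated start. Rpl41 and Rps2 have only short runs there. Annotated starts need not be those used in HSCs.

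A C at the annotated start followed by at least 4 bases that are C or T was present at 20.3% of the 69 member starts and at 2.51% of all 32851 annotated starts. A run of at least 8 such bases touching the window stood at 46.4% of member starts and 21.2% of all starts. Of motifs searched on both strands from 250 bases before to 50 after the start, CCGGAAG was found at 36.2% of member starts against 8.86% of all, AAGATGGC at 10.1% against 2.75%, and GGGCGG at 60.9% against 35.7%. TATAAA was found at 8.70% against 13.6%. These matches describe the letters and do not show a bound factor. The median log2 fold change was 0.16 for the 30 members with a run of at least 8 and 0.16 for the 29 without.

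All 79 members had reads in all libraries and passed the filter on low counts. Their mean levels ran from 1.28 FPKM (Rpl24) to 1510 FPKM (Rps27). In all, 69 members exceeded 100 FPKM, a level reached by 4.24% of all genes in the table, and 26 exceeded 500. Those above 500 were 13 of the 46 large and 13 of the 32 small subunit genes, and the median level was 273 FPKM for large and 461 FPKM for small subunit genes.

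The highest members included Rps27, Rpl32, Rps14 and Rpl4. Rps27, a zinc-finger protein of the small subunit, had 1205, 1349 and 1246 FPKM in wild-type libraries, against 1909, 1980 and 1370 in mutant libraries. Rpl32 had 1316, 1365 and 1379 FPKM in wild type, against 1577, 1519 and 1387 in mutant. Rpl4, which lines the exit tunnel, had 814, 932 and 940 FPKM in wild type, against 887, 916 and 911 in mutant. For Rps27 and Rpl32 the lowest mutant library lay just above the highest wild-type library, and for Rpl4 the groups overlapped. Adjacent members in the order of levels were rarely separated: in 75 of 78 neighbouring pairs the values over all libraries overlapped.

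**Figure D1:**
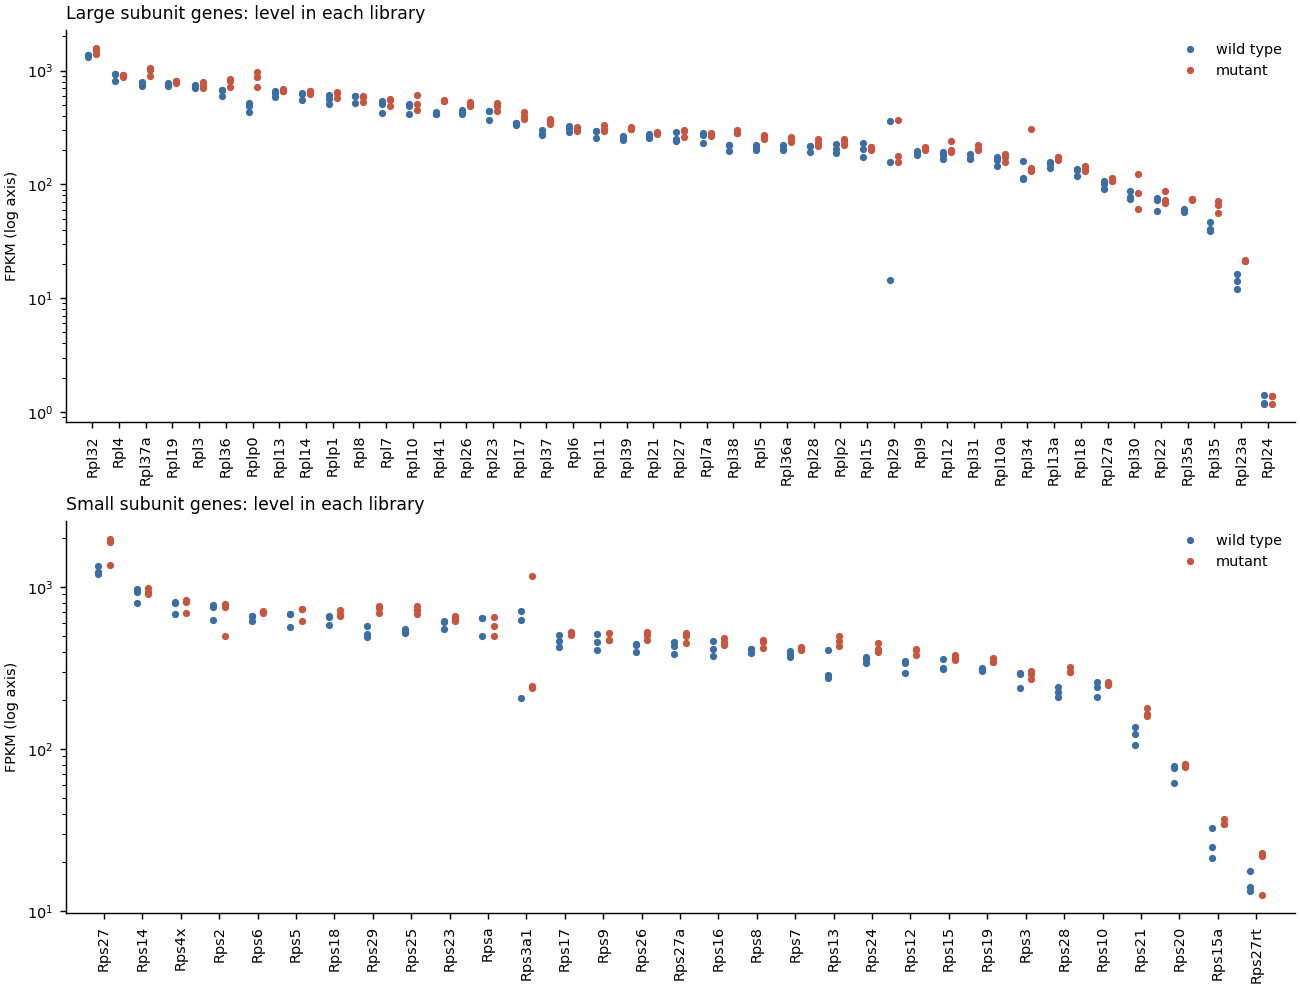
FPKM of large subunit genes (upper panel) and small subunit genes (lower panel), ordered by mean level, on a log axis; each point is 1 library, blue for wild type and red for mutant. Most genes lie between 100 and 1510 FPKM with tight groups of points, while Rpl29, Rps3a1, Rpl34 and Rpl30 scatter widely within a genotype.

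The lowest members were Rpl24 at 1.28, Rps27rt at 17.0, Rpl23a at 17.7, Rps19bp1 at 19.2, Rps15a at 30.9 and Rpl35 at 53.3 FPKM. FPKM depends on the gene length the authors used, and this moved some ranks. Rps15a was scaled to 5130 bases although its principal transcript in GENCODE M21 has 640, and Rps19, scaled to 2657 bases, held rank 43 by FPKM and rank 3 by reads per base of its 633-base principal transcript. Rpl24, Rpl23a and Rpl35 also share much of their sequence with copies: 51.8%, 80.8% and 84.0% of the 50-base words in their transcripts occur in another gene, and of the reads of member and copies together 82.7% for Rpl24 and 68.4% for Rpl23a were counted in the copies. The level of such a gene is therefore uncertain.

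Ribosomal protein genes took 2.97%, 3.32% and 3.28% of all counted reads in wild-type libraries and 3.39%, 3.63% and 3.69% in mutant libraries. The means were 3.19% ± 0.195 and 3.57% ± 0.158 (SD, n = 3 each), and every mutant library lay above every wild-type library. In bulk RNA a different mix of cells and a different amount of RNA per cell cannot be told apart. Large subunit genes took 1.81% ± 0.102 of reads in wild type and 2.05% ± 0.0612 in mutant, without overlap. Small subunit genes took 1.38% ± 0.0947 and 1.52% ± 0.0972, and here mutant replicate 1 lay within the wild-type range. Summed FPKM, which divides each count by gene length, did not overlap for either subunit: it was 14994 ± 957 in wild type and 17120 ± 824 in mutant for small subunit genes, and 16585 ± 931 and 19013 ± 504 for large subunit genes. With reads of the near-identical copies included, the means were 3.38% ± 0.219 and 3.74% ± 0.153, again without overlap.

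The balance of the subunits did not separate the genotypes. Summed FPKM of large over small subunit genes was 1.12, 1.11 and 1.09 in wild type, against 1.14, 1.10 and 1.10 in mutant. These ranges overlapped, and the means were 1.11 ± 0.0179 and 1.11 ± 0.0249 (SD, n = 3 each). The ratio of summed counts was 1.31 ± 0.0253 and 1.35 ± 0.0479, also overlapping.

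**Figure D2:**
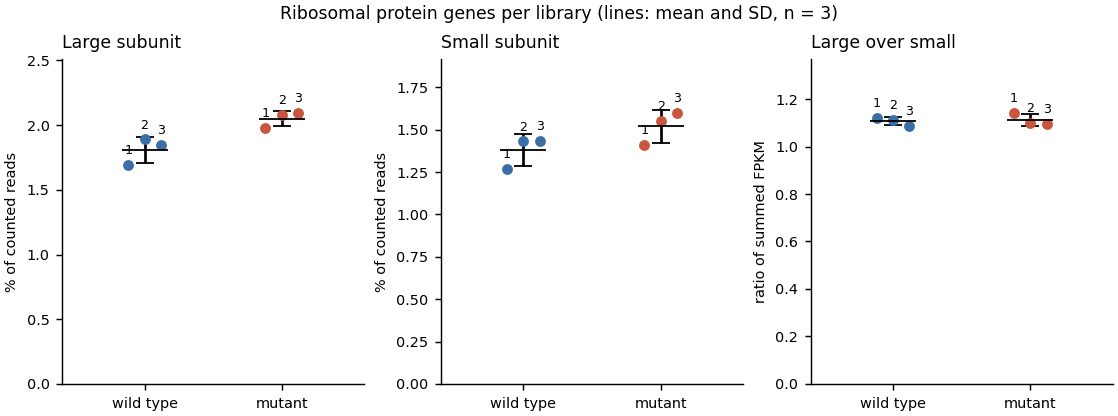
Share of counted reads in large subunit genes (left) and small subunit genes (middle), and the ratio of summed FPKM of large over small subunit genes (right), for each library; numbers are replicate numbers, horizontal lines are means and error bars SDs (n = 3). The mutant libraries lie above all wild-type libraries for the large subunit, while the small subunit shares and the ratio overlap.

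Wild-type replicate 1 was the lowest of all libraries for 62 of the 79 members. The median deviation of members from their mean log2 CPM (counts scaled to equal library size) over all libraries was -0.21, 0.01 and -0.09 in wild-type libraries, against 0.00, 0.16 and 0.12 in mutant libraries, so the groups overlapped, with wild-type replicate 2 above mutant replicate 1.

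Between genotypes, no member passed the test over all genes. Of the 79 members, 0 were called higher and 0 lower at an adjusted p under 0.05 by edgeR's quasi-likelihood test, where 0.00692% of the 14443 genes tested were called higher and 0.0138% lower. Most values lay on 1 side: 76 members had a log2 fold change above 0, against 50.1% of all genes tested, and 3 below it, against 49.9%. With an unadjusted p under 0.05, 26 members were higher and 0 lower. That is 32.9% of the members, where 2.28% of all genes tested were higher and 1.7% lower at that level. In 33 members all mutant libraries lay above all wild-type libraries, 41.8% against 5.87% of all genes tested, and in 0 members they lay below, against 4.38%. Members share libraries and scaling, so they are not independent of each other.

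The size of the difference was small. The median log2 fold change was 0.16 over all members, 0.16 for the large and 0.15 for the small subunit, against 0.00 for all genes tested. In the large subunit 45 of 46 and in the small subunit 30 of 32 genes had values above 0, and 15 and 11 were higher at an unadjusted p under 0.05. Leaving out wild-type replicate 1 lowered the 26 genes at that level to 13, with a median of 0.11, and leaving out wild-type replicate 3 or mutant replicate 2 lowered it to 15. Within the pair of libraries with Y-linked reads the median difference was 0.19, with 70 of 79 members higher in mutant, and within the other 4 libraries it was 0.16, with 75 of 79 higher. Of all 14443 genes tested, 7220 were higher in mutant within the pair and 7132 within the other 4 libraries. DESeq2 called 7 members higher and 0 lower, where 0.135% of all 15505 genes it adjusted were called higher and 0.148% lower. The authors' deposited table gave 6 members an adjusted p under 0.05, all higher: Rplp0, Rps25, Rpl35, Rps29, Rpl41 and Rpl38. Of all 16021 genes adjusted there, 0.0999% were called higher and 0.131% lower. Both sets of calls rest on the same counts.

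**Figure D3:**
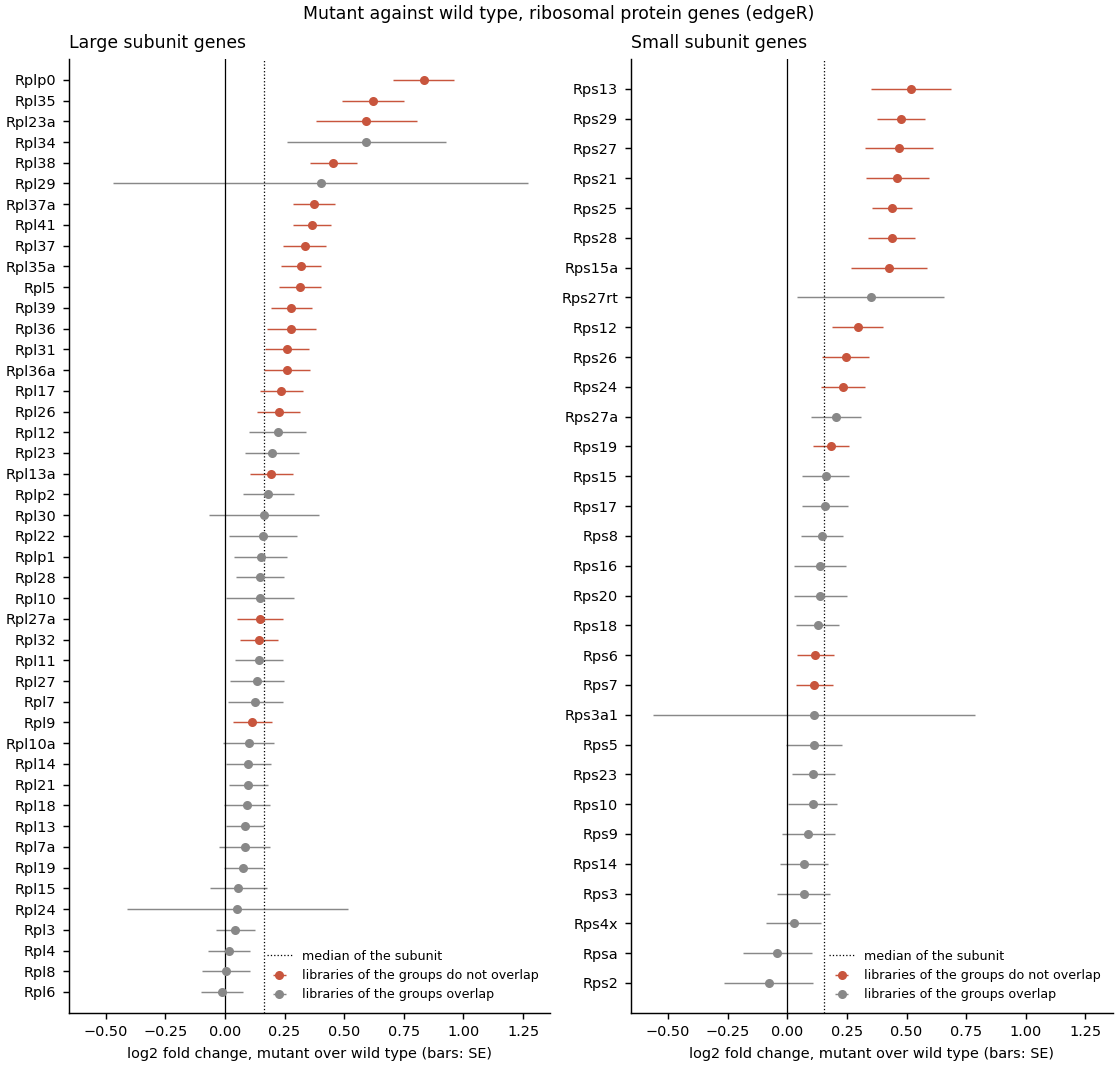
Log2 fold change of large subunit genes (left) and small subunit genes (right), mutant over wild type, from edgeR; points are estimates, bars their SE, red marks genes whose 3 mutant libraries all lie above the 3 wild-type libraries, and the dotted line is the subunit's median (0.16 and 0.15). Nearly all points lie to the right of 0, and no member passes an adjusted p of 0.05.

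The 16 members with the smallest p-values were 10 of the large and 6 of the small subunit, with log2 fold changes of 0.28 to 0.83 and edgeR adjusted p-values of 0.312 to 0.999. Rplp0, the scaffold of the acidic stalk that recruits translation factors, came first. It had 434, 519 and 486 FPKM in wild-type libraries, against 876, 720 and 968 in mutant libraries, a log2 fold change of 0.83 (SE 0.13; edgeR adjusted p = 0.312). The groups did not overlap, but this gene shares reads with copies, as described further on.

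Rps25, which lies in the small subunit head and is needed by some viral internal ribosome entry sites, had 518, 549 and 528 FPKM in wild type, against 719, 760 and 682 in mutant. Its log2 fold change was 0.44 (SE 0.08; edgeR adjusted p = 0.591), and the lowest mutant library was well above the highest wild-type library. Rpl35, at the rim of the exit tunnel, had 47.0, 38.9 and 40.2 FPKM in wild type, against 70.9, 66.3 and 56.5 in mutant (log2 fold change 0.62, SE 0.13; edgeR adjusted p = 0.710). The groups were again apart for this gene.

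Rpl41, the shortest ribosomal protein at 25 residues, had the tightest groups among these genes. Its levels were 417, 433 and 416 FPKM in wild type, against 538, 543 and 548 in mutant, a log2 fold change of 0.36 (SE 0.08). Rpl38, known for its role in the translation of Hox mRNAs in the mouse embryo, had 220, 220 and 196 FPKM in wild type, against 285, 300 and 285 in mutant (log2 fold change 0.45, SE 0.10). Rps29, a zinc-binding protein of the small subunit, had 493, 575 and 515 FPKM in wild type, against 695, 763 and 742 in mutant (log2 fold change 0.48, SE 0.10). All mutant libraries were above all wild-type libraries for Rpl41, Rpl38 and Rps29.

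Others among the 16 were Rps28 at 0.44, Rpl37a at 0.37, Rpl35a at 0.32, Rpl37 at 0.33, Rpl5 at 0.31, Rps21 at 0.46, Rps27 at 0.47, Rpl39 at 0.28, Rps13 at 0.52 and Rpl23a at 0.59 on the log2 scale, each with groups that did not overlap. Rpl5 was the only other one of the 16, besides Rplp0, with a protein of more than 200 residues.

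At the other end, Rps2, Rpsa and Rpl6 had values below 0, none past any threshold. Rps2, near the mRNA entry channel, had 627, 772 and 752 FPKM in wild type, against 495, 784 and 751 in mutant, a log2 fold change of -0.08 (SE 0.19). Mutant replicate 1 was the low library, and without it the value was 0.12. Rpsa, also known as the laminin receptor, had 496, 643 and 647 FPKM in wild type, against 501, 577 and 654 in mutant (log2 fold change -0.04, SE 0.14). Rpl6 had 288, 314 and 329 FPKM in wild type, against 296, 309 and 318 in mutant (log2 fold change -0.01, SE 0.09). The groups overlapped for all of these, and the direction of each turned when single libraries were left out.

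By role, the 8 genes whose proteins line the exit tunnel had 8 values above 0, 6 of them at an unadjusted p under 0.05, with a median of 0.25. These and the following counts stand beside 32.9% of all members and 2.28% of all genes tested that were higher at that level. Beside Rpl35, they include Rpl39, Rpl26, Rpl31, Rpl17 and Rpl23a among the 6, and Rpl19 and Rpl4 at 0.08 and 0.02. The acidic stalk and its base had 4 of 4 above 0 with 1 at that level, Rplp0, while Rplp1, Rplp2 and Rpl12 had 0.15, 0.18 and 0.22. The 5S particle, which holds 5S ribosomal RNA and can bind Mdm2 when assembly fails, had Rpl5 at 0.31 (SE 0.09) and Rpl11 at 0.14 (SE 0.10). Of 8 genes of the decoding centre and head, 7 had values above 0 and 3 were at that level (Rps25, Rps29 and Rps12, at 0.44, 0.48 and 0.29), while Rps23, which contacts the decoding site, had 0.11 (SE 0.09).

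Of 18 genes mutated in Diamond-Blackfan anaemia, 18 had values above 0 and 11 were at an unadjusted p under 0.05, a level reached upwards by 32.9% of all members and 2.28% of all genes tested. Their median log2 fold change was 0.23. Rps19, the gene most often affected in that disease, had 313, 317 and 301 FPKM in wild type, against 346, 365 and 345 in mutant, a log2 fold change of 0.18 (SE 0.08). Its groups did not overlap. This list holds Rps27, Rps28, Rps29 and Rpl35, already given above. Of the proteins made as fusions to ubiquitin or a ubiquitin-like protein, the log2 fold change of Rps27a was 0.21 (SE 0.11) and that of Fau 0.24 (SE 0.10). Gnb2l1, the scaffold protein of the small subunit head, had -0.02 (SE 0.11).

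Members on the X chromosome were Rpl10, Rpl36a, Rpl39 and Rps4x. Rpl36a had 200, 224 and 207 FPKM in wild type, against 236, 262 and 257 in mutant (log2 fold change 0.26, SE 0.10), and Rpl39 had 244, 266 and 260 against 308, 320 and 305. Both had groups that did not overlap, whereas Rpl10 (0.15, SE 0.14) and Rps4x (0.03, SE 0.12) overlapped. On chromosome 1, which also carries Ramp1, lie Rpl7, Rpl31 and Rpl37a, at 0.13 (SE 0.12), 0.26 (SE 0.09) and 0.37 (SE 0.09). The members are spread over 19 chromosomes, with 14 on chromosome 7.

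Log2 fold changes were larger for genes of smaller proteins. The size classes were chosen after the values were seen and are given as a description. The 10 members with up to 100 residues (Rpl41, Rpl39, Rps29, Rps28, Rpl38, Rps21, Rps27, Rps27rt, Rpl37a and Rpl37) all had values above 0, with 9 at an unadjusted p under 0.05 and a median log2 fold change of 0.40. Rps27rt was the exception at that level. The 46 members over 100 and up to 200 residues had 46 values above 0, 15 at that level and a median of 0.16. The 22 members over 200 residues had 19 above 0, 2 at that level (Rplp0 and Rpl5) and a median of 0.09. With the reads of near-identical copies added, as described further on, 1 of the 22 was at that level. Of all genes tested, 50.1% had values above 0 and 2.28% were higher at that level.

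The order by size held in both subunits. Medians by rising size class were 0.36, 0.18 and 0.09 in the large and 0.46, 0.16 and 0.09 in the small subunit. Across the 78 ribosomal protein genes, Spearman's rho between protein length and log2 fold change was -0.68, and with transcript length it was -0.50. With the offset for transcript length described further on, these values were -0.45 and -0.12. These genes share the same 6 libraries and are not independent replicates. Per library, the median deviation of the 10 smallest was -0.29, -0.09 and -0.23 in wild-type libraries, against 0.17, 0.30 and 0.15 in mutant libraries, with no overlap. For members over 200 residues it was -0.19, 0.05 and 0.01 against -0.09, 0.10 and 0.10, with overlap.

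Other genes with short transcripts also had values above 0. Coding genes that are neither members nor their copies had a median log2 fold change of 0.17 for principal transcripts up to 400 bases (24 genes), 0.12 for 400 to 600 bases (161 genes), 0.07 for 600 to 800 and -0.03 for 1500 to 3000 bases. Members in the same classes had 0.45, 0.24, 0.14 and 0.07, but the fall was not even: members had 0.11 at 800 to 1000 bases, 0.15 at 1000 to 1500 and, for a single gene over 3000 bases, 0.14. The other coding genes of up to 600 bases were set against those of 1500 to 3000 bases. Their relative level was -0.06, -0.01 and -0.16 in wild-type libraries, against 0.04, 0.09 and 0.11 in mutant libraries, with no overlap. Only this level relative to the longer class separated the groups. The median deviation of the short genes alone was -0.05, 0.04 and -0.14 in wild-type libraries, against 0.01, 0.07 and 0.14 in mutant libraries, with overlap. The difference by length was no trend over all lengths: the median was 0.0045 for the 5698 other coding genes over 3000 bases. Over all 12599 of them, Spearman's rho between transcript length and log2 fold change was 0.02. With an offset for transcript length in each library, taken from those other genes, the members' median was 0.09, 71 of 79 were above 0 and 8 below (50.6% and 49.4% of all genes tested), and 16 were higher and 0 lower at an unadjusted p under 0.05, 20.3% against 2.09% and 1.79% of all genes tested. The 10 smallest then had a median of 0.27, with 7 at that level. The source of the difference in short transcripts was not tested.

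**Figure D4:**
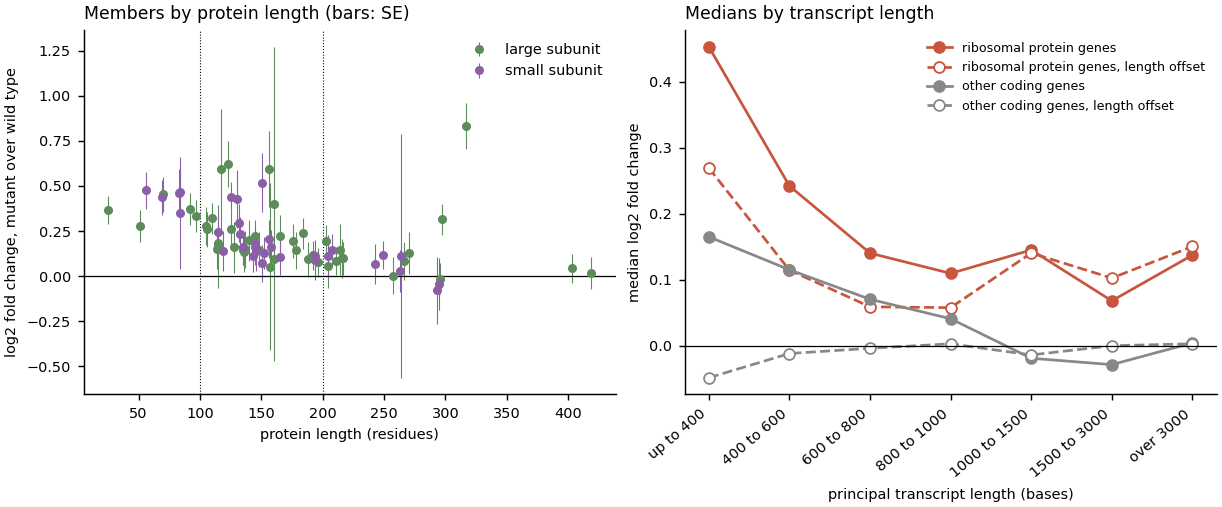
Left, log2 fold change of each ribosomal protein gene (mutant over wild type, bars are SE) against protein length in residues, green for the large and purple for the small subunit, with dotted lines at 100 and 200 residues. Right, median log2 fold change in classes of principal transcript length for ribosomal protein genes (red) and other coding genes (grey), before (filled) and after (open) the length offset; filled medians fall from the shortest class to 800 bases in both sets and follow no single order beyond it for members, and red lies above grey in every class.

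The split of reads between some members and their near-identical copies differed from library to library. A copy was a gene outside the members with at least 25% of its 50-base words in a member's transcripts. There were 280 copies of 66 members in the count table, 249 typed as pseudogenes and 31 as protein-coding. The median member shared 24.4% of its 50-base words with other genes, against 0.51% for other coding genes. For 54 of the 66 the share of reads lying in copies varied by less than 5 percentage points over the libraries. It varied by more than 20 points in 6: Rplp0, Rps13, Rpl34, Rpl30, Rpl29 and Rps3a1. Rpl29, Rpl30, Rpl34, Rps3a1 and the copies named here, like Rps19 and Rps6 above, were chosen after their values were seen.

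Stretches of coding sequence from GENCODE M21 transcripts show how little separates these genes from their copies. Capitals mark the bases that differ within each pair, and positions count from 1 at the A of the start codon.
Rplp0, positions 388 to 447: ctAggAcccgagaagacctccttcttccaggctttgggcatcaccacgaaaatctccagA
Gm8730, aligned to it: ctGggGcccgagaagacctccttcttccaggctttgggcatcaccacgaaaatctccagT
Rps3a1, positions 201 to 260: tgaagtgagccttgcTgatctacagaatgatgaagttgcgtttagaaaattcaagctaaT
Rps3a3, aligned to it: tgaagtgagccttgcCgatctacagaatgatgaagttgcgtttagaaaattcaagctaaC
Rps13, positions 370 to 429: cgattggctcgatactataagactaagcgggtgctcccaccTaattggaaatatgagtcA
Rps13-ps1, aligned to it: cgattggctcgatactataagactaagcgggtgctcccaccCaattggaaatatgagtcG
Gm8730 differs from Rplp0 here by A390G, A393G and A447T, Rps3a3 from Rps3a1 by T216C and T260C, and Rps13-ps1 from Rps13 by T411C and A429G. Over the coding sequence Gm8730 (chr8:102864779-102865853) is 98.7% identical to Rplp0, with 12 differing bases of 951, and Gm9625 (chr13:67810246-67811200) 97.5%. Rps13-ps1 (chr8:87047689-87048226) differs from Rps13 at 2 of 453 bases.

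Rplp0 itself had 590, 705 and 660 CPM in wild-type libraries, against 1190, 978 and 1315 in mutant libraries. Its copies Gm8730 and Gm9625 together had 472, 580 and 515 CPM in wild-type but 17.4, 258 and 13.7 in mutant libraries. The copies thus held 44.4%, 45.1% and 43.8% of the joint reads in wild type, against 1.44%, 20.9% and 1.03% in mutant. The sum of gene and copies was 1174 ± 112 CPM in wild type and 1258 ± 63.0 in mutant (SD, n = 3 each), with overlapping groups. Counted together, the log2 fold change was 0.10 (SE 0.10; edgeR adjusted p = 0.999) in place of 0.83. The call of Rplp0 in the authors' deposited table refers to the gene without its copies.

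Rps13 behaved in the same direction with a smaller shift. It had 159, 238 and 167 CPM in wild type, against 289, 251 and 269 in mutant, and its copies, chiefly Rps13-ps1, had 105, 70.4 and 120 against 18.9, 75.3 and 74.0 CPM. With the copies its log2 fold change was 0.19 in place of 0.52. The mutant libraries were above the wild-type libraries before the copies were added, while mutant replicate 1 was within the wild-type range afterwards.

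Rps3a1, a protein of the small subunit, had 608, 203 and 696 CPM in wild type, against 232, 239 and 1138 in mutant. Its copies, mainly Rps3a3 and Rps3a2, had 254, 603 and 313 CPM in wild type, against 574, 622 and 20.03 in mutant. Member and copies summed to 861, 806 and 1008 against 806, 861 and 1158 CPM. The member alone varied 5.61-fold over the libraries and the sum 1.44-fold, so libraries low in the gene were high in the copies regardless of genotype.

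Rpl29, a basic protein of the large subunit, had 115, 262 and 10.6 CPM in wild type, against 115, 130 and 271 in mutant. Its copies had 24.5, 5.95 and 54.8 CPM against 21.3, 25.6 and 7.13, again high where the gene was low, but the sum still varied 4.25-fold. Rpl34 and Rpl30 were highest in mutant replicate 3, at 219 and 299 CPM, where their copies were at 5.76 and 7.66 CPM. In that library the copies of Rplp0, Rps3a1, Rpl34, Rpl30 and Rpl29 held between 1.03% and 2.57% of the joint reads, whereas those of Rps13 held 21.6%.

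**Figure D5:**
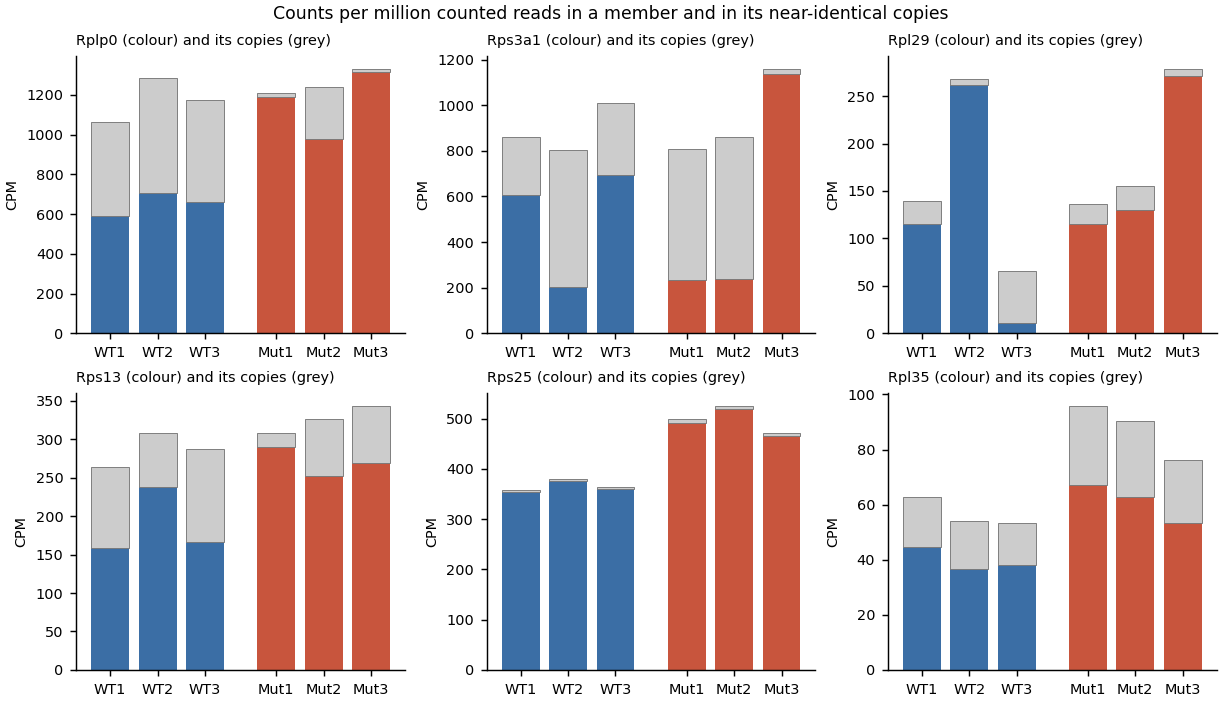
CPM in each library for 6 ribosomal protein genes (coloured bars, blue for wild type and red for mutant) with their near-identical copies stacked on top in grey. For Rplp0 the grey part holds 43.8% to 45.1% of the reads in wild type and little in mutant replicates 1 and 3, so that the whole bars overlap between genotypes, while for Rps25 and Rpl35 the whole bars remain apart.

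Adding the copies left most members where they were. The log2 fold change moved by more than 0.1 for 5 members. It moved to 0.10 for Rplp0 (SE 0.10), 0.19 for Rps13 (SE 0.10) and 0.46 for Rpl34 (SE 0.20). For Rpl29 it moved to 0.27 (SE 0.48) and for Rpl24 to 0.49 (SE 0.27). Rps25 and Rpl35 had 0.45 and 0.63 with copies. Over all members the median was 0.16 with copies, 77 values were above 0, 24 were higher at an unadjusted p under 0.05 and 0 lower (30.4% of members, against 2.09% and 1.63% of all genes tested). Groups did not overlap in 33, with the mutant libraries higher in each, against 5.46% of all genes tested that were higher and 4.31% lower in this way.

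Related gene groups are given beside the members, with no test of the difference. Of all genes tested, 50.1% had values above 0, and 2.28% were higher and 1.7% lower at an unadjusted p under 0.05. Of 76 mitochondrial ribosomal protein genes, 41 had values above 0, with a median of 0.01 and 1 at an unadjusted p under 0.05 in each direction. Of 48 ribosome biogenesis genes, 14 had values above 0, with a median of -0.04. At that level 0 were higher and 1 lower: Polr1b, a subunit of RNA polymerase I. Polr1b had 45.1 ± 2.49 FPKM in wild type and 38.7 ± 1.12 in mutant (log2 fold change -0.22, SE 0.09). Counts of 1 in lists of this size are near the shares of all genes tested. Of 20 translation factors and related genes whose mRNAs carry the same pyrimidine motif, 9 had values above 0, with a median of -0.01 and 0 at that level in either direction. The 5 tested paralogs outside the name rule had 5 values above 0 and 0 at that level, with Rps27l at 0.21 (SE 0.11).

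Among 24 genes of Larp1 and the mTOR pathway, 9 had values above 0, with a median of -0.03. Larp1, which binds the pyrimidine motif of ribosomal protein mRNAs, had 39.1, 28.2 and 30.8 FPKM in wild type, against 12.7, 16.8 and 7.69 in mutant libraries. Its log2 fold change was -1.40 (SE 0.27; edgeR adjusted p = 0.591), which did not pass, while DESeq2 gave an adjusted p of 1.79e-05. All mutant libraries were below all wild-type libraries. Whether the level of Larp1 bears on the level of the members was not tested.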

How the data were processed

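The authors deposited a table of raw read counts per gene with FPKM, gene coordinates and lengths (other values), size-factor-normalized counts (a signal unit, not used), log2 fold changes and p-values. A further deposited FPKM table was not used here. Per the submitters' processing notes, CASAVA, STAR, HTSeq 0.6.1, DESeq2 and build mm10 were used, with no role stated; the annotation release and strand setting are not given in the sources used here. The deposited FPKM matched the count divided by gene length and by the library's counted reads to within 0.0204% for every gene with reads.

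The members and gene lists were chosen with earlier results of these data known. Counts of all genes were fitted with edgeR 4.0.16 (R 4.3.3), 3 wild-type against 3 mutant libraries, with TMM scaling, filterByExpr (14443 genes left), the quasi-likelihood F test (two-sided) and Benjamini-Hochberg adjustment over all genes tested. The SE is the log2 fold change over the square root of F. An exact permutation test of 3 against 3 values cannot go below p = 0.1. Overlap of groups used log2 CPM (prior count 2), shares of reads have no test, and errors are the spread between libraries. Named members were those with the 16 smallest p-values, all below 0, the 6 highest and lowest, those on chromosomes X and 1, and up to 5 of each role list; of other lists up to 4 by smallest p. A few genes are left out of the text and the plots.

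Near-identical copies were found by shared 50-base words in GENCODE M21 transcripts (GRCm38), and an offset for transcript length used a lowess curve (span 0.3) per library. Both were added after seeing the data. Alternatives were other scalings and filters, DESeq2 1.42.0, limma 3.58.1 (voom, and log2 FPKM), each library left out, the replicate block, and Y-linked reads. The gene test was also run on counts simulated from its own fitted dispersions. That simulation held no copies and no length effect, so it cannot show how the test behaves with them.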

Additional observations from a re-analysis of the deposited data

How the results depend on the processing

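No member was called at an adjusted p under 0.05 in any edgeR or limma setting, and DESeq2 called 7. The number higher at an unadjusted p under 0.05 (26) ranged from 13 to 30 when single libraries were left out, with 13 without wild-type replicate 1 and 15 without wild-type replicate 3 or without mutant replicate 2; it was 13 without both libraries carrying Y-linked reads and 16 with the length offset. Over all genes tested, those at that level in either direction numbered 576 of 14443, between 405 of 14863 without wild-type replicate 1 and 1120 of 14876 without mutant replicate 3. They numbered 428 of 14569 without both libraries carrying Y-linked reads and 561 of 14443 with the length offset. The number lower (0) ranged from 0 to 1 on leaving out libraries, with 1 without mutant replicate 3. On leaving out libraries, members above 0 ranged from 68 to 79 and the median from 0.11 to 0.23. With the length offset, 71 members were above 0 and the median was 0.09. With summed counts the large to small ratio, mutant over wild type, was 0.0393 on the log2 scale in place of 0.0062.

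The replicate block gave 26 members higher at an unadjusted p under 0.05, a median of 0.15 and 75 above 0. With the block, 546 of all 14443 genes tested were at that level in either direction. Deviations of same-numbered libraries correlated at 0.14, 0.00 and -0.09, and those of other wild-type and mutant pairs at -0.13 to 0.15. Such values cannot tell whether the numbers pair the libraries. No member was called with or without the block, so the calls cannot tell either. Of 32 genes followed singly, 24 kept their direction in all settings. On leaving out libraries Rps2 ranged from -0.20 to 0.12, Rpsa from -0.16 to 0.0657, Rpl6 from -0.0700 to 0.0308, Rps4x from -0.0564 to 0.12, Rps3a1 from -1.09 to 0.49, Rpl29 from -0.15 to 1.48, Rpl30 from -0.16 to 0.38 and Gnb2l1 from -0.0928 to 0.0688. Without both libraries carrying Y-linked reads Rps2 had 0.0205 and Gnb2l1 0.0012, Rpl6 had 0.0041 with copies added, and Rps4x had -0.0012 with the length offset. Rps3a1 had -0.14 with voom, -0.15 with log2(FPKM + 1) or log2(FPKM + 0.1), -0.13 with the replicate block and -0.0177 with the Y-linked covariate. The cause of these changes was not tested. Precision is limited by the 3 libraries a group and, for members with near-identical copies, by how reads were divided between them.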
